A study of Mus musculus with 20 samples.

Results

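The 38 genes described here are Gusb and 37 other lysosomal genes: 12 glycosidases, 5 sulfatases, 3 lipid hydrolases, 7 proteases, 3 lipid carriers or activators, 5 membrane proteins, 2 subunits of the proton pump and the regulator Tfeb. They were chosen by gene symbol, and 38 of 38 were found among the 24762 genes of the joined count table and among the 15549 genes tested. All libraries came from kidneys of orchidectomised C57BL/6J mice that then received testosterone or vehicle for 4 days. ARLmon/Y males are the mutant genotype as labelled, and the others are wild type (WT). The groups were ARLmon testosterone, ARLmon vehicle, WT testosterone and WT vehicle, with 5 libraries each. Neither the age of the mice nor whether each library is a separate animal is stated, so p-values measure only the spread between these libraries.

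The lysosome is an acid compartment in which hydrolases break down glycans, lipids and proteins taken up or recycled by the cell. Proximal tubule cells of the kidney are rich in lysosomes because they reabsorb filtered proteins. Gusb encodes beta-glucuronidase, which removes glucuronic acid from glycosaminoglycans and has long been studied in mice as a kidney enzyme induced by androgens. Many lysosomal genes share a promoter element read by the transcription factor TFEB, whose core is CACGTG. The question asked of the data was whether Gusb moves alone or together with the rest of the lysosome.

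RefSeq promoter windows (GRCm38.p6, 250 bases before to 50 bases after a gene's start) were at hand for 32 of the 38 genes. Those of Galns, Asah1, Ctsb, Ctsh, Npc1 and Atp6v1h are not shown. Printed here, 5′ to 3′ on the gene's own strand, are the windows of the 4 genes with a window that were called higher with testosterone in WT (Gusb, chr5:130003000-130003299, minus strand; Arsb, chr13:93771429-93771728, plus strand; Galc, chr12:98259410-98259709, minus strand; Glb1, chr9:114400828-114401127, plus strand). They are followed by those of Gaa (chr11:119267713-119268012, plus strand) and Cln3 (chr7:126583187-126583486, minus strand), which were called lower, and of the membrane protein gene Lamp1 (chr8:13158911-13159210, plus strand), which was not called and has the most copies of the element. Capitals mark CACGTG.
Gusb: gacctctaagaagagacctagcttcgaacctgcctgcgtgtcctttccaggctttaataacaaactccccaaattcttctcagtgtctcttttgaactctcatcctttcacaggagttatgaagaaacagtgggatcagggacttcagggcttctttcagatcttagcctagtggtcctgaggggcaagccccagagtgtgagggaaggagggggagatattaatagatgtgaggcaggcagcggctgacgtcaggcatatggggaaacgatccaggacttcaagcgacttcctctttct
Arsb: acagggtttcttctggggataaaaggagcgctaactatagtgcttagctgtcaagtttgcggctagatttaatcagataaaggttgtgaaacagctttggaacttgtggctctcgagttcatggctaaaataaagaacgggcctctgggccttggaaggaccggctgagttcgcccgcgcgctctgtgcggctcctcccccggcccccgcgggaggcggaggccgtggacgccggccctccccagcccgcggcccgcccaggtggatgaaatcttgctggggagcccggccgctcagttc
Galc: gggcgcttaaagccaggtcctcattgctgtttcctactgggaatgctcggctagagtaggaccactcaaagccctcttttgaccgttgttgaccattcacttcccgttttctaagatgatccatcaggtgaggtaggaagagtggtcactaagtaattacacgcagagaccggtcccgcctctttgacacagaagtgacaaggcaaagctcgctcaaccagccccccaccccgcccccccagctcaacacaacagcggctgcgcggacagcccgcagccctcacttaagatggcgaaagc
Glb1: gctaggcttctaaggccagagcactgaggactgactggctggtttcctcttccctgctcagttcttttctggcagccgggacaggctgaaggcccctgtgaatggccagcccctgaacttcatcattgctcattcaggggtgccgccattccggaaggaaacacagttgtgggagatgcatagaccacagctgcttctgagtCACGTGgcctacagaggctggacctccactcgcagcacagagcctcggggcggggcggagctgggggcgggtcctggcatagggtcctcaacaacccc
Gaa: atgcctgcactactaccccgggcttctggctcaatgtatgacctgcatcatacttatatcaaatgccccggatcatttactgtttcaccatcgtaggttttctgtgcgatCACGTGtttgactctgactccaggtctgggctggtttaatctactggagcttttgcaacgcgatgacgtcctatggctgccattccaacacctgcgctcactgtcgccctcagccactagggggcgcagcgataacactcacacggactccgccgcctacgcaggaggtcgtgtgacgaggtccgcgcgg
Cln3: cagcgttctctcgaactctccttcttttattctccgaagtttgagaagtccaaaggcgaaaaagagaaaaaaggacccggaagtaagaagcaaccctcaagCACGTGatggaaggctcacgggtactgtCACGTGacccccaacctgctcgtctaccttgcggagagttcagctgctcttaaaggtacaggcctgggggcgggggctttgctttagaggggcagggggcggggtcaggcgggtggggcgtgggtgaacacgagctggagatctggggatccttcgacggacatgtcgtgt
Lamp1: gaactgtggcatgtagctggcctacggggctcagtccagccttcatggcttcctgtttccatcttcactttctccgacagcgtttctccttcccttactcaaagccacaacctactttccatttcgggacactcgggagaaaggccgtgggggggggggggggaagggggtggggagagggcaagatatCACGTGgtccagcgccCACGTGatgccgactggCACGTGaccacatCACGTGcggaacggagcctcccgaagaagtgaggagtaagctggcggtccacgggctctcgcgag
The windows of Gusb, Arsb and Galc hold no CACGTG. The first base of the element lies at -48 from the start in Glb1, at -140 in Gaa, at -149 and -121 in Cln3, and at -61, -45, -28 and -15 in Lamp1. The sequence reads the same on both strands. For 4 of the 32 genes (Cln3, Ctsa, Psap and Tfeb) RefSeq gives more than 1 window, and counts by gene take a match in any of them. The other Cln3 window, chr7:126585768-126586067, holds no CACGTG, and it is the one that covers the Cln3 gene start of GENCODE M21 (126585817).

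CACGTG was present in 13 of the 32 lysosomal genes with a window (40.6%), against 8.09% of the 27025 genes in the RefSeq table. The longer form TCACGTGA, which contains it, was in 6 of the 32 (18.8%), against 1.12% of all genes. By the WT testosterone call, CACGTG was in 1 of 4 genes called higher (Glb1), in 3 of 4 called lower (Gaa, Arsa and Cln3) and in 9 of 24 not called. The hexamer AGAACA, part of the androgen response element, searched on both strands, was in 4 of the 32 (12.5%), against 21.3% of all genes. Those 4 were Ctsa, Lamp2, Psap and Tpp1, and none of them was called with testosterone in WT. A match or its absence describes only the letters of these windows.

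Polyadenylated kidney RNA was sequenced, and reads assigned to genes numbered 10236738 to 18609328 per library in ARLmon testosterone, 11569255 to 16881304 in ARLmon vehicle, 8342000 to 15422018 in WT testosterone and 8618311 to 38101526 in WT vehicle, so the WT vehicle group held the deepest libraries. As a check of the treatment, Odc1 had 1509.7 ± 119 CPM in WT testosterone and 206 ± 32.4 CPM in WT vehicle (log2 difference 2.87 ± 0.12, SE; edgeR adjusted p = 9.15e-13), and Kap 39464 ± 5352 CPM and 14797 ± 7845 CPM (1.42 ± 0.32, adjusted p = 0.00329). CPM stands for counts after scaling by library size and TMM factor, given as mean ± SD with n = 5 throughout, and a gene was called at an edgeR quasi-likelihood adjusted p below 0.05 over all genes tested. WT vehicle library GC078604 and ARLmon vehicle library GC078618 lay farthest on the main axis of variation within groups, which held 30.4% of that variance.

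Gusb had the largest testosterone response of the 38 genes in WT kidneys. It had 114, 115, 103, 146 and 145 CPM in the WT testosterone libraries, against 32.4, 34.5, 36.9, 36.4 and 42.0 CPM in the WT vehicle libraries. The groups did not overlap, and the lowest testosterone library was above the highest vehicle library. The ratio of the means was 3.43 and the log2 difference 1.78 ± 0.10 (SE; 95% interval 1.56 to 2.00; edgeR adjusted p = 1.32e-10). In bulk tissue a change in the share of the cells that express Gusb and a change of its RNA per cell cannot be told apart.

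In ARLmon kidneys Gusb had 35.4, 28.8, 34.8, 29.7 and 33.5 CPM with testosterone, against 37.9, 39.4, 35.0, 34.0 and 33.9 CPM with vehicle. The ARLmon groups overlapped each other, and none of the 10 ARLmon libraries was above 39.4 CPM. The log2 difference was -0.15 ± 0.10 (95% interval -0.37 to 0.06; adjusted p = 0.774), and the interval does not contain the WT value. The difference of the testosterone effects, ARLmon minus WT, was -1.93 ± 0.15 on the log2 scale (edgeR adjusted p = 3.13e-08). With vehicle, Gusb averaged 36.0 ± 2.51 CPM in ARLmon and 36.4 ± 3.58 CPM in WT (-0.01 ± 0.10, 95% interval -0.23 to 0.20, adjusted p = 0.962). With testosterone it averaged 32.4 ± 3.02 CPM in ARLmon and 125 ± 19.5 CPM in WT (-1.95 ± 0.11, adjusted p = 8.36e-12).

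**Figure D1:**
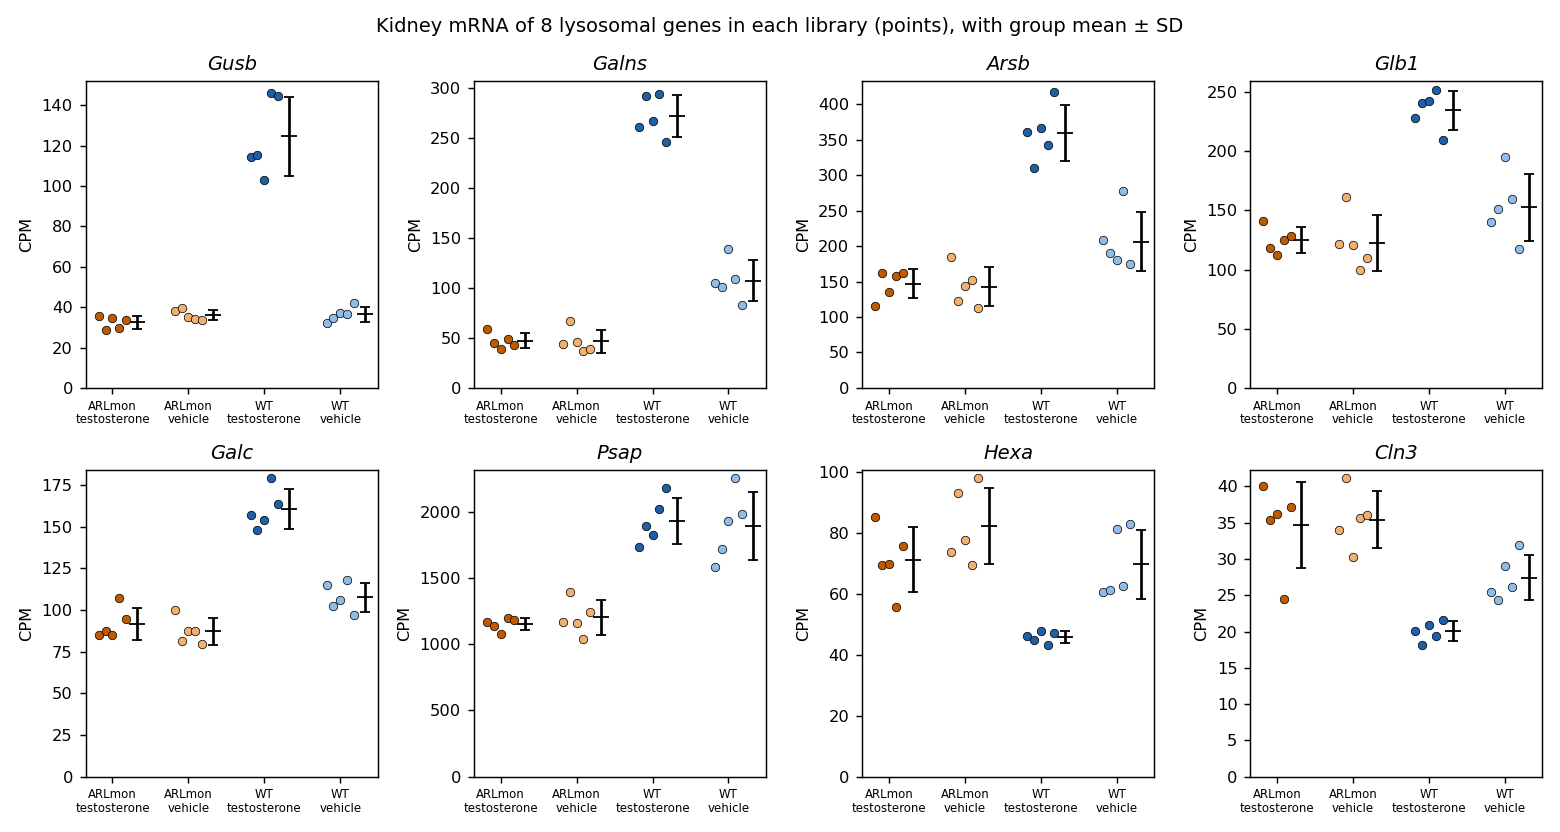
CPM of 8 lysosomal genes (one panel each, y axis from 0) in every library of the 4 groups on the x axis; points are libraries and the bar beside them is the mean ± SD of 5. Gusb, Galns, Arsb, Glb1 and Galc are highest in WT testosterone, Psap is lower in both ARLmon groups, and Hexa and Cln3 are lowest in WT testosterone.

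Of the 38 genes, 12 were called with testosterone in WT: 7 rose (Gusb, Galns, Galc, Arsb, Glb1, Npc1 and Ctsh) and 5 fell (Hexa, Gaa, Cln3, Ctsb and Arsa), while 26 were not called. Among all genes tested 15.7% were called, 9.36% higher and 6.36% lower. The median log2 difference of the 38 was -0.01, beside -0.03 for all genes tested, and 18 of the 38 differences were above 0. For 9 of the 38 the WT groups did not overlap, against 12.6% of all genes tested. Gusb and Galns were the 2 with a log2 difference of at least 1 in size. Counts of falling genes depend on the scaling: with library size as the only scaling 10 of the 38 were called lower, while the median difference of all genes moved to -0.18.

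Among the sulfatases, Galns and Arsb rose with testosterone in WT kidneys and Arsa fell. Galns, which encodes the enzyme that removes sulfate from keratan sulfate and chondroitin sulfate, had 261, 292, 267, 294 and 246 CPM in the WT testosterone libraries, against 105, 101, 139, 109 and 82.4 CPM in the WT vehicle libraries. These groups did not overlap (ratio 2.53, log2 difference 1.34 ± 0.15, adjusted p = 1.26e-06). Arsb, which encodes arylsulfatase B and acts on dermatan sulfate and chondroitin sulfate, had 361, 310.1, 367, 343 and 418 CPM in WT testosterone, against 209, 190.1, 181, 277 and 175 CPM in WT vehicle. Vehicle library GC078605 was the nearest to the testosterone group, and these groups did not overlap either (log2 difference 0.80 ± 0.14, adjusted p = 0.000374). Arsa, the sulfatide sulfatase gene, averaged 13.7 ± 1.83 CPM and 17.5 ± 2.39 CPM (-0.34 ± 0.11, adjusted p = 0.0367), with overlapping libraries. Sgsh, which acts on heparan sulfate, and Ids, which acts on heparan sulfate and dermatan sulfate, were not called. Exons of Arsb and Arsa overlap opposite-strand genes (Gm26527 and C230037L18Rik) and the strand setting of the counting is not stated, so both values are uncertain. Galns and Gusb share exon bases with no other annotated gene.

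Among the 12 glycosidases, 3 rose (Gusb, Galc and Glb1), 2 fell (Hexa and Gaa) and 7 were not called, with a median log2 difference of -0.04. That is 41.7% called, beside 15.7% of all genes tested (9.36% higher and 6.36% lower). Galc, the galactosylceramidase gene, had 157, 148, 154, 179 and 164 CPM in WT testosterone, against 115, 102, 106, 118 and 97.1 CPM in WT vehicle. Its groups did not overlap (log2 difference 0.57 ± 0.09, adjusted p = 7.22e-05). Glb1, which encodes lysosomal beta-galactosidase, had 228, 241, 242, 252 and 209 CPM in WT testosterone, against 139.8, 151, 195, 159.9 and 117 CPM in WT vehicle. Vehicle library GC078604 was the nearest to the testosterone group, and the groups did not overlap (0.62 ± 0.13, adjusted p = 0.00144). Reads of Glb1 can be shared with Tmppe, which overlaps it on the same strand. Galc shares exon bases with the opposite-strand gene Gm47439.

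Hexa, which encodes the alpha subunit of beta-hexosaminidase, had 46.2, 44.7, 47.7, 43.2 and 47.2 CPM in WT testosterone, against 60.6, 61.3, 81.1, 62.4 and 83.0 CPM in WT vehicle. All 5 testosterone libraries were below all 5 vehicle libraries (log2 difference -0.60 ± 0.12, adjusted p = 0.00143). Gaa, the acid alpha-glucosidase gene that acts on glycogen, had 99.3, 127, 109.8, 102 and 126 CPM in WT testosterone, against 123, 158, 173, 155 and 185 CPM in WT vehicle. Here 1 vehicle library, GC078602, lay within the testosterone range (-0.49 ± 0.11, adjusted p = 0.00285). The sialidase gene Neu1, the mannosidase gene Man2b1 and the fucosidase gene Fuca1 were not called with testosterone in WT (log2 differences -0.04, -0.08 and 0.14). Hexa shares exon bases with the opposite-strand gene Tmem202.

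Among the 7 proteases, 1 rose and 1 fell (28.6% called, beside 15.7% of all genes tested, 9.36% higher and 6.36% lower). The cysteine protease gene Ctsh averaged 252 ± 12.8 CPM in WT testosterone and 201 ± 22.7 CPM in WT vehicle (0.32 ± 0.10, adjusted p = 0.0363), and Ctsb, another cysteine protease gene, 687 ± 27.7 CPM and 876 ± 136 CPM (-0.35 ± 0.11, adjusted p = 0.0282). The 5 other proteases, among them Ctsd (-0.36, adjusted p = 0.114), were not called. Cln3, the membrane protein gene mutated in a juvenile form of neuronal ceroid lipofuscinosis, averaged 20.04 ± 1.35 CPM in WT testosterone and 27.4 ± 3.09 CPM in WT vehicle without overlap (-0.45 ± 0.12, adjusted p = 0.0118). Npc1, which exports cholesterol from the lysosome, averaged 30.4 ± 1.93 CPM and 23.7 ± 2.59 CPM, also without overlap (0.36 ± 0.11, adjusted p = 0.0272). Exons of Cln3, Ctsb and Npc1 overlap opposite-strand genes (Apobr, Fdft1 and Rmc1).

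The calls of Npc1, Ctsh, Ctsb and Arsa did not hold without some single libraries. That of Npc1 was lost without GC078604, GC078606, GC078607, GC078610 or GC078611 (edgeR adjusted p up to 0.0783), and that of Ctsh without GC078602, GC078603, GC078606, GC078607, GC078608 or GC078610 (up to 0.0986). Ctsb was lost without GC078604, GC078606, GC078608, GC078610 or GC078611 (up to 0.0869), and Arsa without GC078604, GC078605, GC078606, GC078607, GC078609 or GC078610 (up to 0.105). With library size as the only scaling, Npc1 and Ctsh were not called. The calls of Gusb, Galns, Arsb, Galc, Glb1, Hexa, Gaa and Cln3 were kept in all 20 fits without 1 library and in all 10 fits with another setting.

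Of the uncalled genes, Asah1, the acid ceramidase gene, and Ctsd, the cathepsin D gene, had the largest differences. Asah1 averaged 117 ± 7.91 CPM in WT testosterone and 91.1 ± 17.6 CPM in WT vehicle (0.36 ± 0.15, adjusted p = 0.103), and Ctsd 753 ± 42.2 CPM and 967 ± 252 CPM (-0.36 ± 0.15). Lamp1, an abundant glycoprotein of the lysosomal membrane, averaged 1351 ± 57.0 CPM in WT testosterone and 1416 ± 93.1 CPM in WT vehicle, which differ by -0.07 ± 0.08 on the log2 scale (95% interval -0.22 to 0.09). Tfeb, which encodes the transcription factor that activates many lysosomal genes, averaged 20.8 ± 4.05 CPM and 26.0 ± 6.12 CPM (-0.31 ± 0.19, adjusted p = 0.285). Its libraries overlapped, and the interval of -0.71 to 0.08 covers 0. The proton pump subunits Atp6v1h and Atp6v0d1 were not called.

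**Figure D2:**
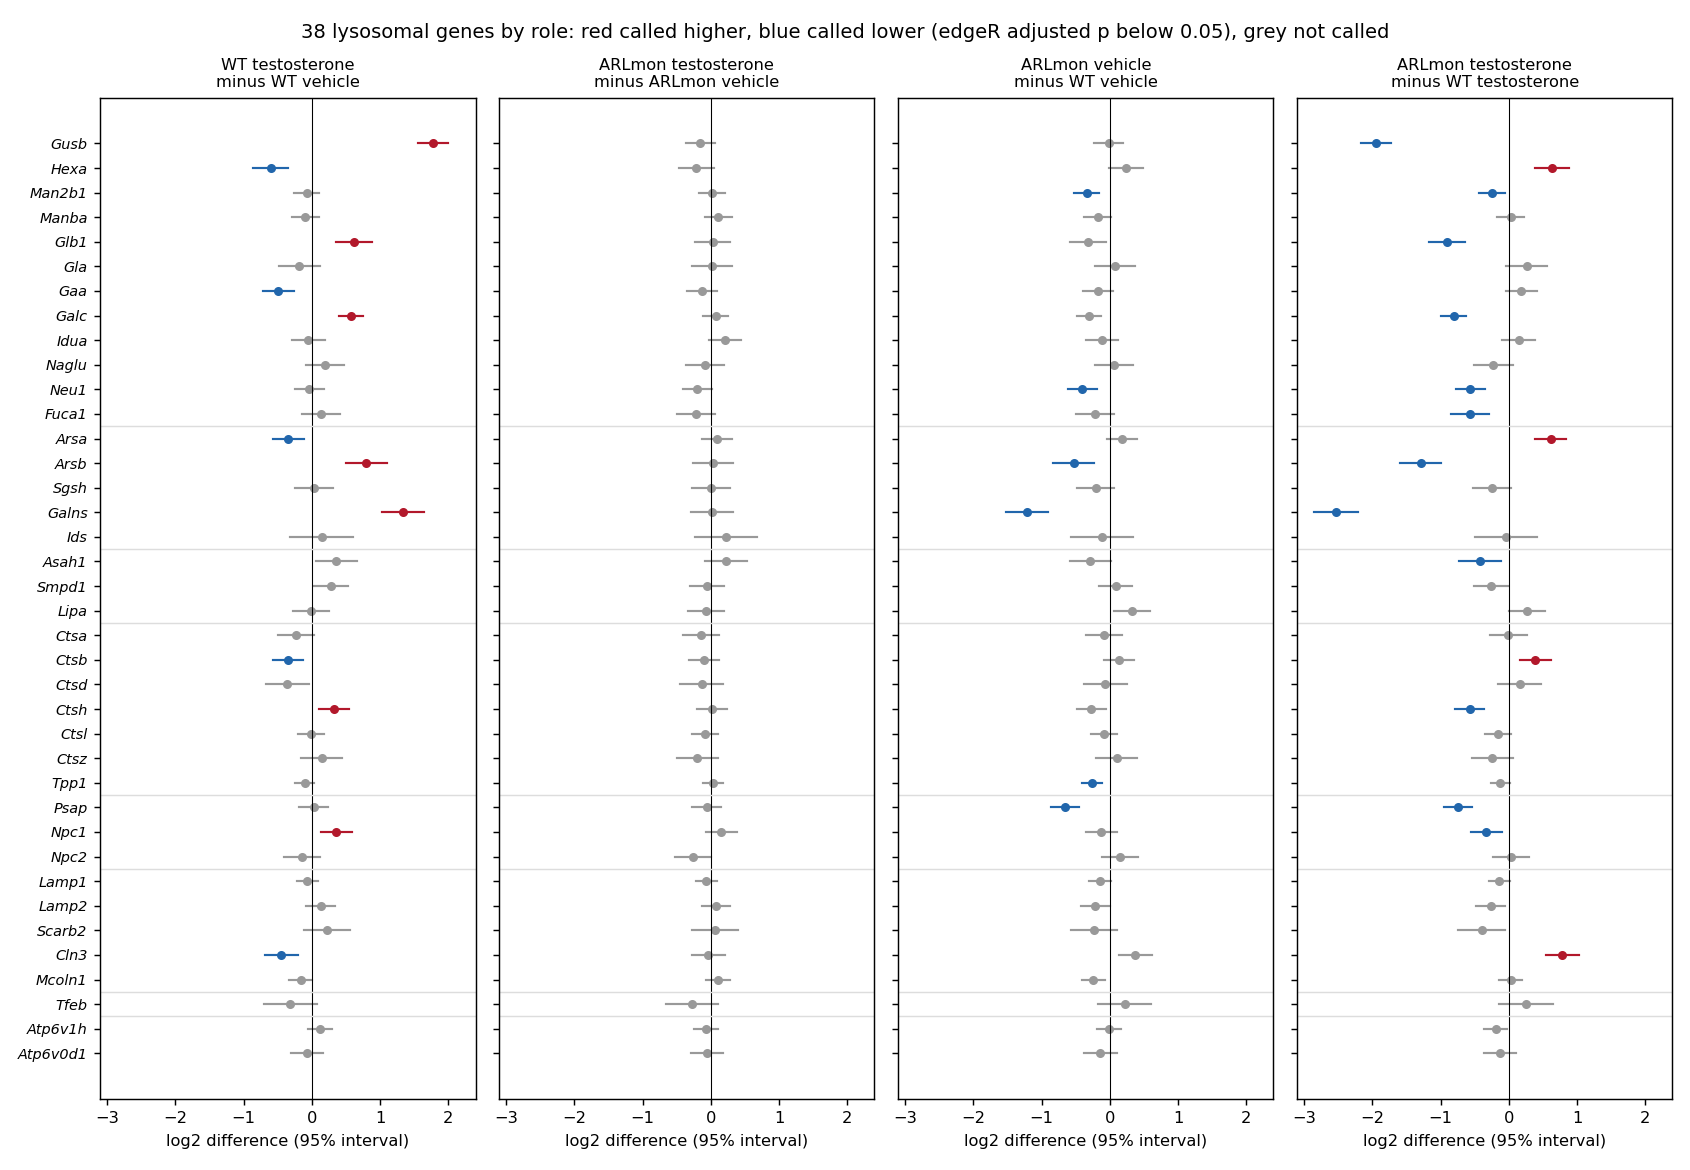
Log2 difference with its 95% interval (x axis) of the 38 lysosomal genes (rows, grouped by role) in 4 comparisons; red is called higher, blue called lower and grey not called. Gusb at 1.78 and Galns at 1.34 lead the WT testosterone panel, and the ARLmon testosterone panel holds no called gene.

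Per length, Gusb was among the less abundant of these mRNAs before testosterone. Its level was 27.4 CPM per kb of exon in WT testosterone and 8.01 CPM per kb in WT vehicle, ranks 20 and 29 of 38. The Galns level was 103 CPM per kb in WT testosterone and 40.5 CPM per kb in WT vehicle, ranks 9 and 15. Psap, the precursor of the saposins that present lipids to hydrolases, and Lamp1 held ranks 1 and 2 in both WT groups, Psap with 703 CPM per kb in WT testosterone and 691 CPM per kb in WT vehicle. Gusb ranked 29 of 38 in ARLmon testosterone and 28 in ARLmon vehicle. Lengths are unions of exons in GENCODE M21, and the authors may have counted on another annotation.

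Summed over the 38 genes, CPM ran from 11126 to 11796 in the WT testosterone libraries and from 10150 to 12342 in the WT vehicle libraries, so these ranges overlapped. In ARLmon the sum ran from 8982 to 10007 CPM with testosterone, below all WT testosterone libraries, and from 8983 to 10858 CPM with vehicle. As a share of all reads, without TMM scaling, the 38 made up 0.952% to 1.08% in ARLmon testosterone. In WT testosterone this share was 0.993% to 1.07%, so these ranges overlapped. Gusb made up 0.911% to 1.26% of the reads of the 38 genes in WT testosterone, against 0.299% to 0.359% in WT vehicle. In ARLmon it made up 0.311% to 0.38% with testosterone and 0.343% to 0.378% with vehicle. For the 37 genes other than Gusb, the mean log2 deviation of a library from the gene averages ran from 0.10 to 0.14 in WT testosterone and from -0.06 to 0.15 in WT vehicle. In ARLmon this mean deviation ran from -0.15 to -0.03 with testosterone and from -0.17 to 0.03 with vehicle. The deviation of Gusb itself ran from 1.11 to 1.61 in WT testosterone, against -0.56 to -0.19 in WT vehicle.

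**Figure D3:**
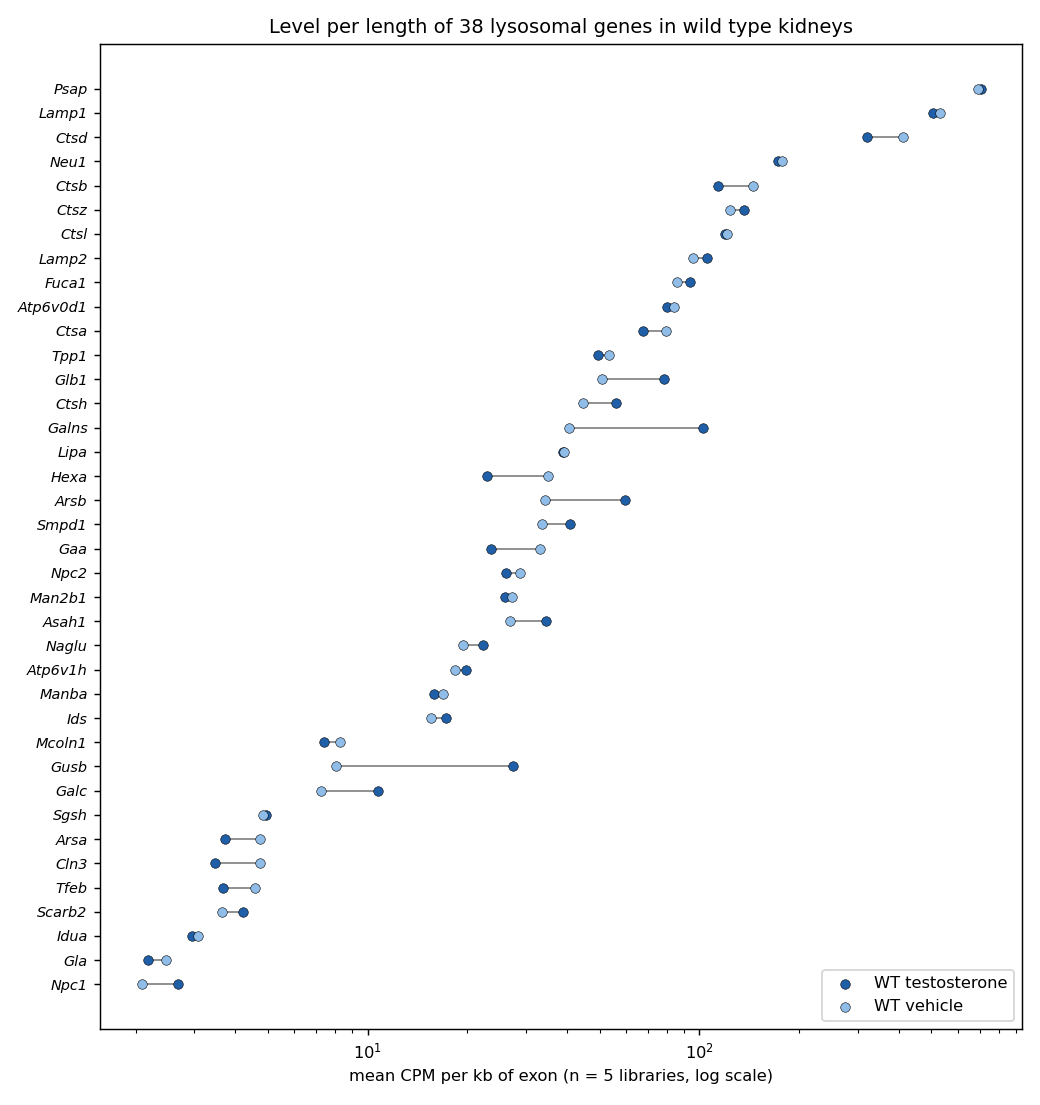
Mean CPM per kb of exon (x axis, log scale, n = 5 libraries) of the 38 genes (rows, ordered by WT vehicle) in WT testosterone (dark) and WT vehicle (light), joined by a line. The Gusb line, between 27.4 and 8.01, is the longest, and Psap and Lamp1 head the order.

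In ARLmon kidneys 0 of the 38 genes were called with testosterone, and 0% of all genes tested were called in either direction. At an unadjusted p below 0.05 there were 0 of the 38 and 813 of all genes tested, and DESeq2 and limma-voom also called 0. The median log2 difference of the 38 was -0.05, beside 0.01 for all genes tested, and the differences ran from -0.28 (Tfeb) to 0.23 (Asah1). Galns had 58.9, 45.3, 39.1, 48.6 and 43.4 CPM in ARLmon testosterone, against 43.8, 66.7, 45.5, 37.2 and 39.2 CPM in ARLmon vehicle. These groups overlapped, as they did for each of the 38 genes and for all but 0.778% of genes tested (0.02 ± 0.15, 95% interval -0.29 to 0.33). For Arsb the log2 difference was 0.04 ± 0.14 and for Galc 0.07 ± 0.09. Of the 12 genes called in WT, the 95% interval in ARLmon left out the WT value for 11. Each WT value was treated as a fixed point, and these genes were picked by their WT calls. The 11 therefore cannot be read as a number of genes whose response differed between the genotypes. The difference of the testosterone effects, tested directly, was called for 4 of the 12.

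The difference of the testosterone effects was called for 4 of the 38 genes, and all 4 were lower in ARLmon: Gusb, Galns (-1.32 ± 0.21, edgeR adjusted p = 0.000379), Arsb (-0.76 ± 0.20, adjusted p = 0.0269) and Galc (-0.50 ± 0.12, adjusted p = 0.0185). Among all genes tested 4.77% were called, 3.34% lower and 1.42% higher. The median log2 value of the 38 was -0.06, beside 0.02 for all genes tested. Glb1 missed the threshold (-0.59 ± 0.18, adjusted p = 0.0610). None of the 5 genes that fell in WT was called here, the nearest being Arsa (0.43 ± 0.15, adjusted p = 0.128). With library size as the only scaling, with no filter, and with limma on the deposited log2 values, the calls of Arsb and Galc were lost (adjusted p up to 0.108 and 0.149). That of Arsb was also lost without GC078606, GC078611, GC078612, GC078614 or GC078617 (up to 0.0613).

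With vehicle alone, ARLmon kidneys had less mRNA of some lysosomal genes than WT kidneys, Galns and Psap foremost, while Gusb was not called. Of the 38 genes, 0 were called higher and 6 lower: Galns, Psap, Neu1, Man2b1, Tpp1 and Arsb. Among all genes tested 4.37% were called, 2.38% lower and 1.99% higher. The median log2 difference of the 38 was -0.13, beside 0.00 for all genes tested. Galns averaged 46.5 ± 11.8 CPM in ARLmon vehicle and 107 ± 20.4 CPM in WT vehicle (-1.21 ± 0.15, adjusted p = 2.08e-05). The highest ARLmon vehicle library, GC078618 with 66.7 CPM, was below the lowest WT vehicle library with 82.4 CPM.

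Psap had 1171, 1395, 1159, 1043 and 1242 CPM in ARLmon vehicle, against 1586, 1722, 1930.3, 2258 and 1981 CPM in WT vehicle. The groups did not overlap (-0.66 ± 0.10, edgeR adjusted p = 0.000300). Neu1, which encodes the lysosomal sialidase, had 495, 556, 434, 470.4 and 544 CPM in ARLmon vehicle, against 606, 589, 751, 692 and 669 CPM in WT vehicle, also without overlap (-0.40 ± 0.10, adjusted p = 0.0234). Galns, Psap, Neu1 and Tpp1 were the 4 of 38 whose vehicle groups did not overlap, against 4.57% of all genes tested. Tpp1, a serine protease gene, averaged 229 ± 10.1 CPM in ARLmon vehicle and 275 ± 15.5 CPM in WT vehicle (-0.26 ± 0.07, adjusted p = 0.0308). Man2b1, the alpha-mannosidase gene, averaged 173 ± 24.3 CPM and 219 ± 17.7 CPM (-0.34 ± 0.09, adjusted p = 0.0305), with overlapping libraries. Arsb averaged 143 ± 28.1 CPM and 206 ± 41.6 CPM (-0.53 ± 0.14, adjusted p = 0.0334), also with overlap.

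The vehicle calls of Neu1, Tpp1, Man2b1 and Arsb were lost with library size as the only scaling, when the compared groups were fitted alone, and without single libraries. Neu1 was lost without GC078605, GC078617, GC078619 or GC078620 (adjusted p up to 0.0745), and Tpp1 without GC078605, GC078618, GC078619, GC078620 or GC078621 (up to 0.116). Man2b1 was lost without GC078603, GC078604, GC078605, GC078617, GC078619, GC078620 or GC078621 (up to 0.0853), and Arsb without GC078602, GC078605, GC078618, GC078619 or GC078621 (up to 0.136). The vehicle calls of Galns and Psap were kept in all 20 fits without 1 library.

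With testosterone in both genotypes, 16 of the 38 genes were called between ARLmon and WT, beside 31.1% of all genes tested (15.6% higher and 15.5% lower). The median log2 difference of the 38 was -0.18, beside 0.04 for all genes tested. The 12 lower in ARLmon were Gusb, Galns, Galc, Arsb, Psap, Glb1, Ctsh, Neu1, Fuca1, Npc1, Asah1 and Man2b1, and the 4 higher were Cln3, Arsa, Hexa and Ctsb. Galns averaged 47.1 ± 7.44 CPM in ARLmon testosterone and 272 ± 20.7 CPM in WT testosterone (-2.53 ± 0.16, adjusted p = 6.16e-11), the largest difference of the 38. Arsb differed by -1.29 ± 0.14, Glb1 by -0.91 ± 0.13, Galc by -0.81 ± 0.09 and Psap by -0.74 ± 0.10 on the log2 scale. Cln3 averaged 34.6 ± 5.92 CPM in ARLmon testosterone and 20.04 ± 1.35 CPM in WT testosterone (0.79 ± 0.12, adjusted p = 2.96e-05), and Hexa 71.1 ± 10.7 CPM and 45.8 ± 1.87 CPM (0.63 ± 0.12, adjusted p = 0.000481). This comparison shares the WT testosterone libraries with the one against WT vehicle. The count of higher genes depends on the scaling: with library size alone 12 of the 38 were called higher, and the median of all genes moved to 0.28, against 0.04. The median of the 38 was then 0.069, so its sign also depends on the scaling. Man2b1 lost its call there, its log2 difference being 0.00044, and it was also lost without any 1 of the 5 WT testosterone libraries or without GC078613, GC078614 or GC078615 (edgeR adjusted p up to 0.0896). The call of Npc1 was lost without GC078610, GC078611, GC078614 or GC078616 (up to 0.0675). That of Asah1 was lost without GC078607, GC078609, GC078610, GC078611, GC078612, GC078613, GC078614 or GC078616 (up to 0.0987) and with library size alone (log2 difference -0.18), while that of Fuca1 (-0.57 ± 0.13) was kept in every fit run.

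In none of the 5 comparisons were 20 of the 38 genes called: the glycosidase genes Manba, Gla, Idua and Naglu, the sulfatase genes Sgsh and Ids, the lipid hydrolase genes Smpd1 and Lipa, the protease genes Ctsa, Ctsd, Ctsl and Ctsz, the carrier gene Npc2, the membrane protein genes Lamp1, Lamp2, Scarb2 and Mcoln1, Tfeb, and both pump subunit genes. With testosterone in WT their log2 differences ran from -0.36 (Ctsd) to 0.28 (Smpd1), and 8 of the 20 were above 0. In ARLmon they ran from -0.28 (Tfeb) to 0.22 (Ids). Between ARLmon and WT they ran from -0.24 (Mcoln1) to 0.33 (Lipa) with vehicle and from -0.39 (Scarb2) to 0.27 (Lipa) with testosterone, where Lamp2 came nearest to a call (edgeR adjusted p = 0.0518).

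Genes tied to the lysosome beyond the 38 came from 6 further lists, among them regulators of TFEB and autophagy genes. Not all of them encode parts of the lysosome. The lists hold 132 genes, of which 130 were tested. With testosterone in WT 22 of these rose and 11 fell (25.4% called, beside 15.7% of all genes tested, 9.36% higher and 6.36% lower), with a median log2 difference of 0.00. In ARLmon 0 were called. The 31 other hydrolases held 4 that rose and 8 that fell (38.7%). Fuca2, which encodes a fucosidase, rose by 0.93 ± 0.09 on the log2 scale, the sulfatase gene Arsg by 0.92 ± 0.11 and the thioesterase gene Ppt2 by 1.10 ± 0.14. Man2b2, a mannosidase gene, changed by -0.53 ± 0.08, and it fell. For these 4 genes the difference of the testosterone effects was also called (Fuca2 -0.97, Arsg -0.90, Ppt2 -1.15, Man2b2 0.46). Ppt2 shares 957 exon bases with the same-strand gene Gm20460, and Arsg 48 with the opposite-strand gene Slc16a6, so their values are less certain.

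Of 23 other membrane proteins tested, 5 rose and 1 fell (26.1% called, beside 15.7% of all genes tested, 9.36% higher and 6.36% lower). Ostm1, the partner subunit of the chloride transporter encoded by Clcn7, rose by 0.48 ± 0.08 and Clcn7 by 0.31 ± 0.08, while the nucleoside transporter gene Slc29a3 rose by 0.69 ± 0.13 and the cation channel gene Tpcn1 fell (-0.37 ± 0.07). Of 19 further genes of the proton pump, 4 rose, among them Atp6v1a (0.58 ± 0.13), and 1 fell, Atp6v0a1 (-0.28 ± 0.08), which makes 26.3%. Of 16 genes that sort or activate lysosomal enzymes, 3 rose and 1 fell (25%). M6pr and Igf2r, which encode the mannose 6-phosphate receptors that carry hydrolases to the lysosome, rose by 0.62 ± 0.07 and 0.52 ± 0.13. Sumf1, which encodes the enzyme that activates all sulfatases, rose by 0.41 ± 0.07.

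Of 21 genes that regulate TFEB or belong to its family, 3 rose and 0 fell (14.3%, beside 15.7% of all genes tested). Mtor, which encodes the kinase that holds TFEB in the cytoplasm, averaged 458 ± 75.7 CPM in WT testosterone and 160.3 ± 33.5 CPM in WT vehicle (1.51 ± 0.16, adjusted p = 4.21e-07). Its activator Rheb and its partner Rptor changed by 0.28 ± 0.07 and 0.26 ± 0.08. Of 20 autophagy genes tested, 3 rose (Atg5, Atg12 and Wipi2, by 0.33, 0.32 and 0.23) and 0 fell, which is 15% of them. Mtor spans Angptl7, a gene on the other strand. The calls of Atg5, Atg12, Clcn7, Rheb, Rptor and Wipi2 were lost with library size as the only scaling (adjusted p up to 0.0809, 0.107, 0.119, 0.252, 0.339 and 0.446 over the settings tried), and that of Igf2r with limma on the deposited log2 values (0.0693). Without single libraries, Atp6v0a1 was lost for GC078607, GC078610 or GC078611 (up to 0.0558), Rptor for GC078602, GC078603, GC078607 or GC078609 (up to 0.0700), and Wipi2 in 18 of 20 fits (up to 0.124).

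Genes tied to glucuronic acid and to beta-glucuronidase itself made a short list of 6, of which 3 rose and 1 fell with testosterone in WT. That is 66.7% called, beside 15.7% of all genes tested (9.36% higher and 6.36% lower). Slc35d1, which moves UDP-glucuronic acid into the endoplasmic reticulum, rose by 0.77 ± 0.10 on the log2 scale, and Ugp2, which makes UDP-glucose, by 0.45 ± 0.08. Ugdh, which turns UDP-glucose into UDP-glucuronic acid, was not called (0.36 ± 0.13, adjusted p = 0.0626). Ces1e encodes egasyn, the mouse esterase that holds part of the beta-glucuronidase in the endoplasmic reticulum. It had 167, 139, 139, 135 and 115 CPM in WT testosterone, against 126, 148, 164, 87.9 and 68.0 CPM in WT vehicle. The libraries overlapped (0.22 ± 0.18, adjusted p = 0.451). Ces1f rose (1.25 ± 0.26) and Ces1d fell (-0.39 ± 0.13). The call of Ces1d was lost in 15 of 20 fits without 1 library (edgeR adjusted p up to 0.139). Ces1d, Ces1e and Ces1f are related genes side by side on chromosome 8. Sharing of reads between them was not tested, so their counts, those of Ces1e included, are uncertain.

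Around Gusb, 16 other genes within 250 kb were tested. With testosterone in WT, 2 of them rose and 0 fell (12.5% called, beside 15.7% of all genes tested), a share near that of all genes. Cct6a, a chaperonin subunit gene, changed by 0.38 ± 0.10 (adjusted p = 0.00785) and Tmem248 by 0.22 ± 0.07 (adjusted p = 0.0449). Cct6a shares 452 exon bases with the opposite-strand gene Psph and 102 with the same-strand gene Snora15. Tmem248 shares 238 with the opposite-strand gene Gm6598, so the values of Cct6a and Tmem248 are uncertain. The call of Tmem248 was lost in 13 of 20 fits without 1 library (up to 0.122), and both calls were lost with library size as the only scaling (up to 0.0880 for Cct6a and 0.625 for Tmem248 over the settings tried). The nearest gene, Vkorc1l1, 2319 bases away, changed by 0.23 ± 0.13 (adjusted p = 0.251), and Asl, 8209 bases away and the gene of a urea cycle enzyme, by -0.46 ± 0.16 (adjusted p = 0.0611). Neither was called. Gusb lies on the minus strand of chromosome 5 from 129989011 to 130003049 (GRCm38, GENCODE M21).

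**Figure D4:**
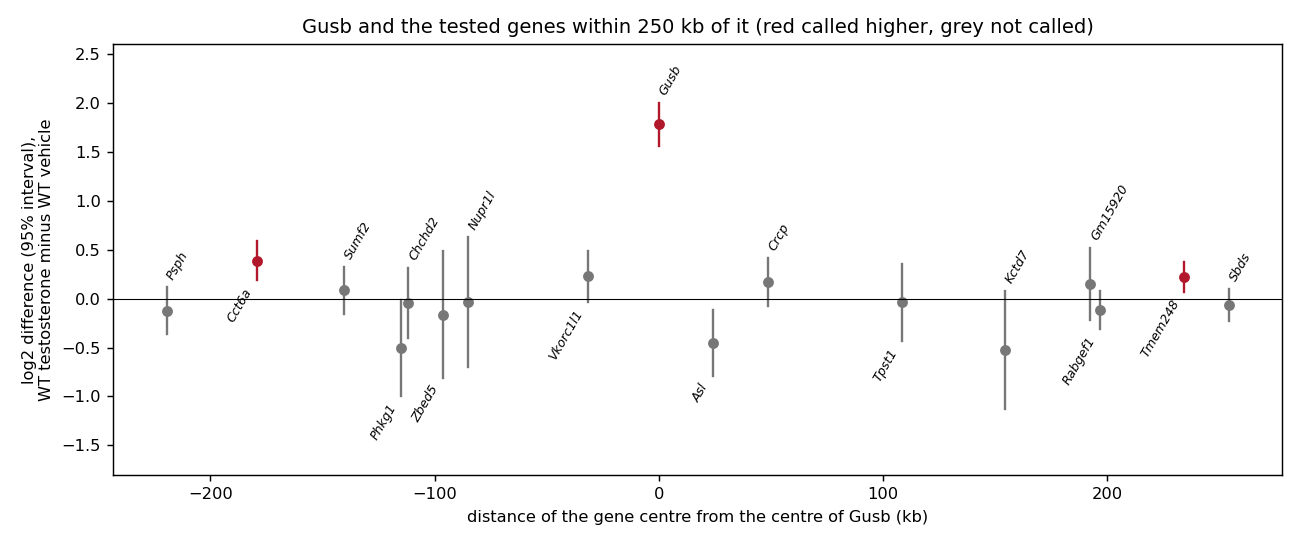
Log2 difference with its 95% interval (y axis, WT testosterone minus WT vehicle) of Gusb and the 16 tested genes within 250 kb, against distance from the centre of Gusb in kb; red is called higher and grey not called. Gusb stands at 1.78 and the 2 called neighbours at 0.38 and 0.22.

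Some markers of kidney cell types also moved in these comparisons. All 14 proximal tubule markers were above 1 CPM in WT vehicle. With testosterone in WT, 5 rose and 2 fell (50% called, beside 15.7% of all genes tested, 9.36% higher and 6.36% lower). The 5 included Kap, Slc7a13 (log2 difference 2.56) and Slc22a30 (2.47). Over the 14 markers the median log2 difference was only 0.09 and the lowest was -0.77, with 9 above 0. The sum of the 14 without Kap ran from 20255 to 23585 CPM in WT testosterone and from 12443 to 22749 CPM in WT vehicle. Without Kap it ran from 16957 to 19281 CPM in ARLmon testosterone and from 16645 to 19827 CPM in ARLmon vehicle. Of the 14, 4 were lower in ARLmon vehicle than in WT vehicle and 0 higher, beside 2.38% lower and 1.99% higher of all genes tested. Among the 4 were Slc7a13 (-7.09) and Slc22a30 (-2.77). Of 12 distal nephron and collecting duct markers, all 12 had a log2 difference below 0 with testosterone in WT (median -0.20). Of these 1 was called (8.33%, beside 15.7% of all genes tested), Fxyd4, which fell. Its call was lost in 9 of 20 fits without 1 library. In ARLmon vehicle 4 of the 12 were higher than in WT vehicle and 0 lower, beside 1.99% higher and 2.38% lower of all genes tested. The sum of the 12 distal markers ran from 5306 to 7345 CPM in ARLmon testosterone, 6291 to 7565 CPM in ARLmon vehicle, 4181 to 5705 CPM in WT testosterone and 5377 to 6904 CPM in WT vehicle. Between ARLmon testosterone and WT testosterone, 6 of the 12 distal markers were higher and all 12 differences were above 0 (median 0.48), while 3 of the 14 proximal tubule markers were higher and 5 lower, beside 15.6% higher and 15.5% lower of all genes tested. Whether a marker that moved reports a share of cells or a response of that gene was not tested. The part of these marker shifts in the lysosomal values was not tested either.

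Macrophages, which are also rich in lysosomes, were followed by 12 markers, of which 11 were tested. Csf1r rose with testosterone in WT (0.52 ± 0.15, a call lost without GC078606 or GC078610) and the rest were not called. This makes 9.09% called, beside 15.7% of all genes tested. The call of Csf1r was also lost with library size as the only scaling and with limma on the deposited log2 values. Csf1r shares 873 exon bases with the opposite-strand gene Hmgxb3, so its value is uncertain. Of the 11 differences, 7 were below 0, the median was -0.33, the lowest -0.73, and 4 of the 11 had an unadjusted p below 0.05. The sum ran from 166 to 248 CPM in WT testosterone and from 171 to 219 CPM in WT vehicle. Between ARLmon testosterone and WT testosterone 3 of the 11 were higher and 1 lower, with a median of 0.50. That is 36.4% called, a share near the 31.1% of all genes tested (15.6% higher and 15.5% lower). Of 8 adrenal and liver markers 5 were tested, and the adrenal gene Cyp11b1 had 157 reads and Cyp17a1 58 reads over all 20 libraries. The summed level of these markers ran from 53.0 to 90.7 CPM in ARLmon testosterone, 40.2 to 71.7 CPM in ARLmon vehicle, 128 to 164 CPM in WT testosterone and 99.0 to 137 CPM in WT vehicle. Ttr held most of the reads of these markers, with 18849 over all libraries against 4670 for Serpina1a and 3245 for Alb, and the members moved in opposite directions. With testosterone in WT, Ttr rose by 0.80 ± 0.23 (a call lost without GC078606), Alb fell by 1.68 ± 0.19 and Serpina1a by 0.91 ± 0.30 (lost in 9 of 20 fits without 1 library) on the log2 scale. Between ARLmon testosterone and WT testosterone, Alb differed by 2.12 ± 0.19, Ttr by -1.68 ± 0.23 and Serpina1a by -1.34 ± 0.32. Serpina1a has near-identical copies, so its counts are uncertain. The part of these markers was likewise not tested. Without libraries GC078604 and GC078618 the WT testosterone comparison called 10 of the 38 genes higher and 4 lower, beside 9.65% higher and 6.37% lower of all genes in that fit (16% in either direction), and the log2 difference of Gusb was 1.79.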

How the data were processed

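Kidney RNA libraries were made with a stranded kit for polyadenylated RNA and sequenced on an Illumina instrument, per the labels' protocols. FastQC 0.11.7, HISAT2, SAMtools 1.5, HTSeq 2.7.14 (as listed), DESeq2 and the mm10 build are named per the submitters' processing notes; annotation, settings and the strand setting of the counting are not given in the sources used here. The authors deposited 4 tables of raw read counts per gene, each for a pair of groups, which hold whole numbers with no normalization. A further table from the authors gives log2 values in all 20 libraries, with a normalization that no source states.

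The 4 tables were joined to 24762 genes in 20 libraries, and 12045 values in 1713 genes that were absent from a table were set to 0. Column codes give a library's group but not its replicate number. Counts were tested with the quasi-likelihood F-test of edgeR 4.0.16 under R 4.3.3 (genes kept by filterByExpr, TMM scaling, 4 group means, 16 residual degrees of freedom), with Benjamini-Hochberg adjustment over the 15549 genes kept and a call at an adjusted p below 0.05. The ± after a log2 difference is its standard error, that after a mean CPM the SD over 5 libraries. Intervals are at 95%. Precision is limited by 5 libraries per group and by depth, which ran from 8342000 to 38101526 reads.

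A check of the genotype labels by the altered gene is not reported here. The members and gene lists were chosen with earlier results of these data known, so no test was run over a list. The text names Gusb throughout, per comparison up to 10 other members with the smallest p among those called (every library for up to 6), the 2 uncalled members with the largest change, up to 4 called genes of each other list, and neighbours of Gusb within 250 kb. Members called beyond these, Lamp1, Tfeb, Ugdh and Ces1e, and log2 differences of some uncalled members, were named after their values were seen.

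Alternatives were median-ratio size factors, scaling by library size alone, testing all genes or those at 1 CPM in 5 libraries, DESeq2 1.42.0, limma-voom (limma 3.58.1), the 10 most abundant genes left out, the compared groups alone, limma on the deposited log2 values, 2 libraries left out together, and each library left out in turn. Promoter windows are from RefSeq on GRCm38.p6, gene positions and exon lengths from GENCODE M21. Figures were drawn with matplotlib 3.10.9.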

Additional observations from a re-analysis of the deposited data

Results flagged for a closer look

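In 6 of the 72 sets of 5 libraries examined (18 members in 4 groups), 1 library stood far from the others of its group; chance alone gives such a library in about 1 of 20 sets. Neu1 was 335 CPM in ARLmon testosterone library GC078615, against 448 to 493 CPM in the rest of its group. Galns was 66.7 CPM in ARLmon vehicle library GC078618, against 37.2 to 45.5 CPM, Fuca1 was 320 CPM in the same library, against 205 to 235 CPM, and Npc1 was 15.4 CPM there, against 22.3 to 24.8 CPM. Tpp1 was 247 CPM in ARLmon vehicle library GC078617, against 223 to 227 CPM, and 303 CPM in WT vehicle library GC078605, against 265 to 271 CPM.

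The testosterone effect differed between the genotypes by the edgeR interaction test for 4 of the 38 genes. On the log2 scale, ARLmon minus WT, the difference was -1.93 for Gusb, -1.32 for Galns, -0.76 for Arsb and -0.50 for Galc.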

How the results depend on the processing

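Under 30 settings besides the one reported, Gusb kept its call and direction with testosterone in WT (log2 1.63 to 1.84, largest adjusted p 5.86e-07), between the genotypes with testosterone and in the difference of effects, and stayed uncalled with testosterone in ARLmon and between the genotypes with vehicle. The fit of the compared groups alone gives no difference of effects, so that result was not checked there. Of 140 results for single genes, 89 were the same in direction and call under every setting. With library size as the only scaling, 10 of the 38 genes were called lower with testosterone in WT (median -0.16), 1 higher and 2 lower in ARLmon with vehicle, 12 higher in ARLmon with testosterone (median 0.069), and 4 higher and 2 lower in the difference of effects (median 0.12). With limma on the deposited log2 values the same counts were 11 lower in WT, 3 lower in ARLmon with vehicle, 11 higher in ARLmon with testosterone (median 0.057), and 3 higher and 2 lower in the difference of effects (median 0.11). In the reported fit the median was -0.01 with testosterone in WT, -0.18 between the genotypes with testosterone and -0.06 in the difference of effects. The medians of -0.18 and -0.06 thus changed sign under both of these settings. DESeq2 called 1 gene higher in ARLmon with vehicle, fitting only the compared groups called 2 lower there, and no filter called 2 lower in the difference of effects.

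Between the genotypes with testosterone, Man2b1 turned to 0.00044, Rptor to 0.0026 and Tmem248 to 0.014 with library size alone, and Tmem248 to 0.023 with the deposited log2 values. The median of all genes was then 0.28 with library size alone and 0.27 with the deposited values, whose normalization no source states; the cause was not tested. Leaving out 1 library at a time, genes called lower with testosterone in WT ran from 3 (without GC078604, GC078606 or GC078610) to 6, those higher in ARLmon with vehicle from 0 to 1 (GC078606 or GC078615), those lower there from 2 (GC078605 or GC078619) to 7, and those higher in the difference of effects from 0 to 1 (GC078615).

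No paired analysis was possible because the columns of the tables carry library codes and not the replicate numbers of the labels. The low number of libraries, the unstated strand setting and annotation, and the lower depth of the WT testosterone libraries limit what can be said of small differences.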
